A study of Homo sapiens with 3 samples.

Results

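The genes described here encode the machinery of oxidative phosphorylation: the subunits of respiratory complexes I to IV and of ATP synthase, called complex V. They were chosen by gene symbol from the deposited expression tables: NDUFA, NDUFB, NDUFC, NDUFS and NDUFV genes, SDHA to SDHD, UQCR genes, COX4 to COX8 genes, ATP5 genes and the protein-coding genes of mitochondrial DNA. The choice took 103 of the 20344 genes in the tables, 90 of them nuclear and 13 mitochondrially encoded. By complex there were 46 genes for complex I, 4 for complex II, 10 for complex III, 20 for complex IV and 23 for complex V.

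The study asks how propranolol, a blocker of beta-adrenergic receptors, acts on vemurafenib resistance in melanoma, as its title states. A375 is an established human melanoma line with a mutant BRAF kinase, and vemurafenib is an inhibitor of that kinase. 2 of the 3 samples were analysed, titled A375, Prop and A375-VR, Prop, and the libraries are called A375 and A375-VR below. Of 2 values given together the first is from A375 and the second from A375-VR. The remaining sample, A375-VR, DMSO, was not analysed here. The labels do not spell out VR. The same extraction protocol is given for every sample and names only A375-VR cells, held in DMSO or in 20 µM propranolol for 24 h, whereas title and cell line label of the first library both say A375. A375 is likewise the cell line given for the remaining sample, against its title. By their titles both libraries come from cells given propranolol, so what they would share is the drug and what they would differ in is the line, but with 1 library per group the line, the treatment, the culture and the library preparation cannot be told apart. No gene was tested, and every difference below is between these 2 libraries.

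Both libraries were read as FPKM, fragments per kilobase of gene and per 1000000 mapped fragments. Totals worked out from the FPKM values came to 17811339 fragments for A375 and 16438482 for A375-VR. Of the melanocyte markers, 3 of 8 reached an FPKM of 1: SOX10 at 65.3 and 149.6 (A375 and A375-VR), MITF at 6.47 and 3.47, and S100B at 3.72 and 12.6. The pigment genes PMEL, MLANA, TYR, TYRP1 and DCT stayed under 1 in both. None of 7 muscle markers and none of 5 leukocyte markers reached 1, with PTPRC, CD3E and CD68 listed at 0. Of 5 keratinocyte markers KRT10 and KRT14 did (the list summed to 47.8 and 59.5 FPKM, with TP63 and KRT1 at 0), and of 6 fibroblast markers only LUM did (sums of 3.48 and 5.49). The part of these markers in the differences below was not tested.

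Oxidative phosphorylation passes electrons from NADH through complex I, or from succinate through complex II, to ubiquinone, then through complex III and cytochrome c to complex IV, which reduces oxygen to water. Complexes I, III and IV pump protons across the inner mitochondrial membrane, and complex V makes ATP as the protons flow back. Mitochondrial DNA encodes a few hydrophobic core subunits of every complex but II, its genes are transcribed as long polycistronic RNAs from both strands, and all remaining subunits are made in the cytosol from nuclear genes and imported.

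Because the mitochondrial genes lie end to end and some overlap, the sequence at 3 places shows how far short reads can separate them. Coordinates are GRCh37 throughout unless another build is named. The first line below is the stretch of 46 bases shared by MT-ATP8 and MT-ATP6, and the second the stretch of 7 bases shared by MT-ND4L and MT-ND4; capitals mark the first codon of the downstream gene. Both are on the plus strand.
MT-ATP8 and MT-ATP6, chrM:8527-8572: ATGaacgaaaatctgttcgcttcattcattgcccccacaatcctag
MT-ND4L and MT-ND4, chrM:10760-10766: ATGctaa

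The next pair is a stretch of 60 bases within MT-CO1 and its near-identical copy in nuclear chromosome 1. It is shown because reads of 150 bases may be assigned to either. Its 3 differences are the most in any stretch of 60 bases without a gap, a number that other stretches of MT-CO1 also reach. Capitals mark the bases that differ. Counted from 1 at the first base of MT-CO1, with the mitochondrial base first, they are T318C, C339T and A363C. Over the whole of MT-CO1 there were 20 substitutions and 1 gap in 1542 aligned bases. No substitution lay between T738C and C1032T, a run longer than a read of 150 bases.
MT-CO1, chrM:6207-6266: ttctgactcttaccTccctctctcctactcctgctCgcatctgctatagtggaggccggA
Chromosome 1 copy, chr1:566757-566816: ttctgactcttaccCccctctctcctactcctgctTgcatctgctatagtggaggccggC

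The oxidative phosphorylation genes were among the most abundant in these cells, and the mitochondrially encoded ones made up most of their RNA. Members summed to 26117 FPKM in A375 and 26653 in A375-VR, 9.85% and 10.2% of all FPKM. Mitochondrially encoded genes gave 79.9% and 79.4% of those sums. Their median level was 1198 FPKM in A375 and 1163 in A375-VR, against 42.4 in each for the nuclear members past the expression filter, a ratio of 28.3 and 27.4. In both libraries 6 of the 10 most abundant genes were mitochondrially encoded members.

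Levels of nuclear members ran from the filter limit of 1 up to 670 FPKM in A375 and 571 in A375-VR. ATP5F1B, the catalytic beta subunit of ATP synthase, was the most abundant nuclear member in both. UQCRH, a small complex III subunit that binds cytochrome c1, followed at 333 and 342 FPKM, NDUFS5 of complex I at 278 and 296, and COX8A of complex IV at 263 and 278. The gene length behind each FPKM value limits the comparison of levels between genes: the lengths recovered for nuclear members had a median of 2043 bases, whereas the canonical transcripts of the same genes have a median of 756 bases. In 42 of 77 nuclear members the recovered length was over 2 times the canonical transcript. This lowers their FPKM relative to the mitochondrial genes, whose annotated lengths were used and gave whole reads for every gene.

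**Figure D1:**
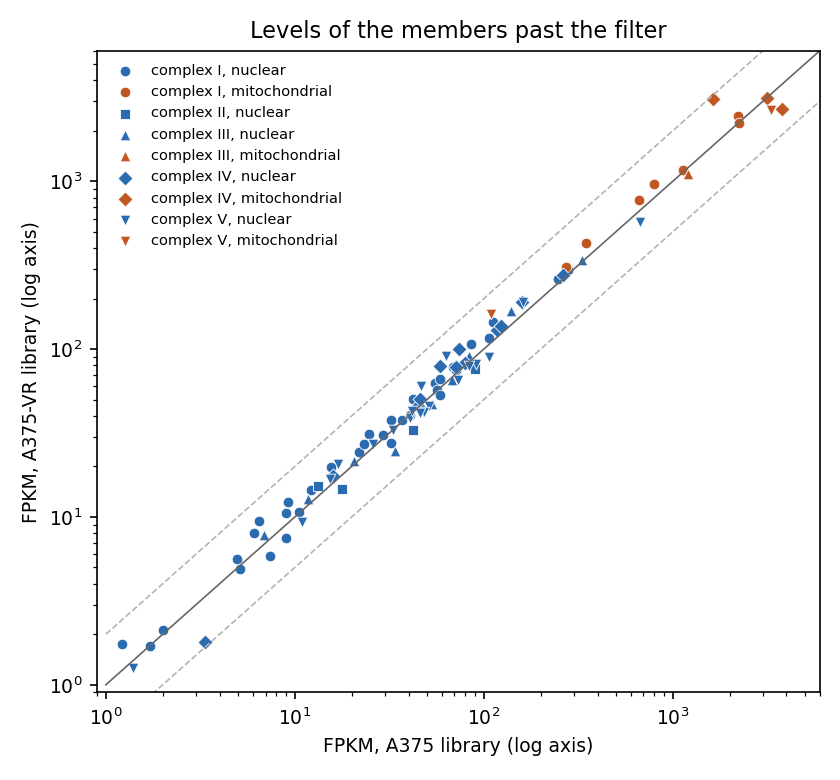
FPKM in A375-VR (vertical, log axis) against FPKM in A375 (horizontal, log axis), 1 point per member past the filter, with shape for the complex and colour for nuclear or mitochondrially encoded; the solid line marks equal values and the dashed lines 2-fold. All points lie between the dashed lines, and the mitochondrially encoded genes (109 to 3810 FPKM in A375) lie towards the upper right.

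Of the 103 members, 92 reached an FPKM of 1 in either library (79 nuclear and all 13 mitochondrially encoded), and the comparison of the 2 libraries was made over these. Fold is the FPKM in A375-VR divided by that in A375, with a 95% interval for counting error only. Difference is the same comparison as log2(FPKM + 1), A375-VR minus A375, and a gene was counted as past the small limit where the difference was at least 0.3219 in size, a description and not a test. These are bulk RNA values, in which fewer cells of a type and less RNA per cell cannot be told apart. Members differed little between the libraries. The differences ran from -0.63 to 0.92, and over members the log2(FPKM + 1) values of the 2 libraries had a Pearson correlation of 0.995, a description over genes of 2 libraries.

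None of the 92 members was 2-fold apart, against 3.75% of the 10761 genes past the filter (3.14% higher and 0.613% lower). Past the small limit, 12 of the 92 members (13%) were higher in A375-VR, where 26.8% of all genes past the filter were. In the other direction there were 5 members past the limit, or 5.43%, against 13.8% of all genes. Members past the filter were more abundant than all genes past it, with median FPKM of 52.2 and 51.9 against 7.22 and 8.09. Their median reads were 1795 and 1591 against 605 and 621, and the part of expression level in these shares was not tested. The median difference was 0.08 over members and 0.10 over all genes past the filter, and 61 members were above 0 and 31 below, where 60.3% and 39.7% of all genes were. The scale of the files thus places the typical gene slightly higher in A375-VR. Of all genes past the small limit, 66.0% were higher on the deposited scale, 50.4% after centring on the median gene and 49.9% after a trimmed mean scaling. Directions below are on the deposited scale, with the count relative to the median gene beside each complex.

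The 5 complexes did not share 1 direction. Complexes I and IV had more members higher in A375-VR and complexes II and V more members lower, with median differences of 0.16 for complex I, -0.24 for complex II, 0.05 for complex III, 0.13 for complex IV and -0.08 for complex V. Summed FPKM gave folds of 1.09 for complex I, 0.855 for complex II, 0.972 for complex III, 1.05 for complex IV and 0.863 for complex V. For complex III the sum and the median thus had opposite directions, and without the mitochondrially encoded genes the sums had folds of 1.04 for complex III and 0.952 for complex V. Relative to the median of all genes, 24 of 42 members of complex I and 9 of 15 of complex IV were higher, 3 of 4 of complex II and 15 of 21 of complex V were lower, and complex III had 4 of 10 higher. With centring or with the trimmed mean the median of complex III fell below 0 (-0.05 and -0.07), while the medians of the other complexes kept their sign.

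**Figure D2:**
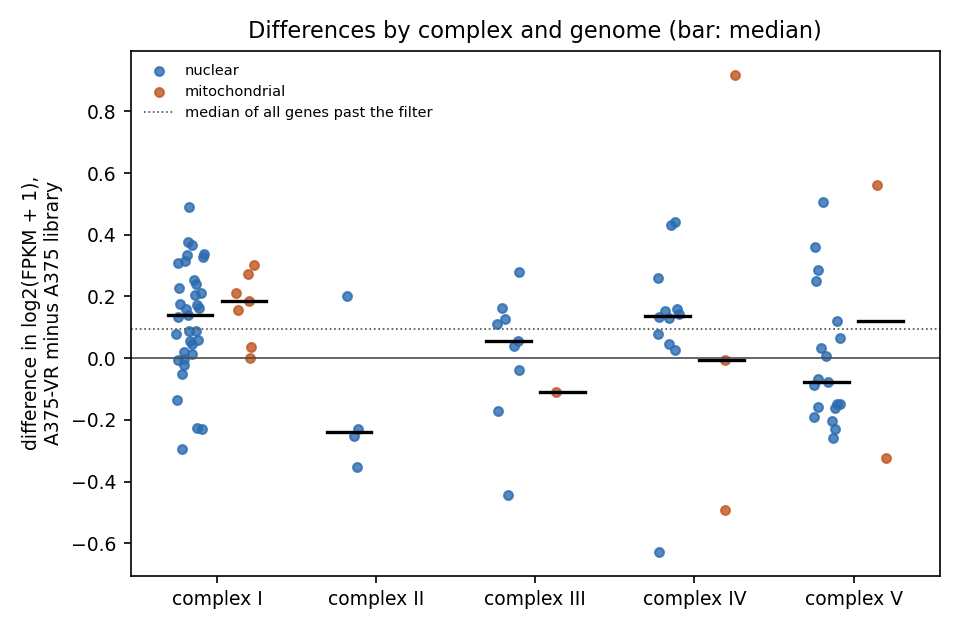
Difference in log2(FPKM + 1), A375-VR minus A375 (vertical), by complex, nuclear and mitochondrially encoded genes side by side; points are genes past the filter, bars are medians and the dotted line is the median of all genes (0.10). Medians of the nuclear genes are 0.14 for complexes I and IV, 0.06 for complex III, -0.24 for complex II and -0.08 for complex V, and the points of the complexes overlap.

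Complex I, the NADH dehydrogenase, takes electrons from NADH and is the largest of the complexes. Of its 42 members past the filter, 33 were higher and 9 lower in A375-VR, where 60.3% and 39.7% of all genes were. Past the small limit 6 members were higher (14.3%, against 26.8% of all genes) and 0 lower (against 13.8%). The 95% counting interval of the fold lay above 1 for 23 and below 1 for 4, where 43.6% of all genes lay above and 26.4% below. The 6 genes counted as higher were all accessory subunits: NDUFA3, NDUFB1, NDUFB10, NDUFB8, NDUFA8 and NDUFB2.

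NDUFA3, an accessory subunit of the membrane side, had 6.47 FPKM in A375 and 9.49 in A375-VR, a fold of 1.47 (1.26–1.72). NDUFB1 had 9.23 and 12.3 FPKM, a fold of 1.33. NDUFB10 had 112 and 145 FPKM, a fold of 1.29 (1.19–1.40). The NDUFB subunits belong to the distal membrane arm of the complex, and NDUFB8, at 6.09 and 7.97 FPKM, and NDUFB2, at 15.5 and 19.8 FPKM, had folds of 1.31 and 1.27. NDUFA8 had 85.4 and 108 FPKM, a fold of 1.26 (1.17–1.36). The exons of NDUFA3 overlap those of TFPT on the opposite strand. Those of NDUFB8 overlap HIF1AN on the opposite strand and another protein-coding gene on the same strand. Those of NDUFB2 overlap BRAF on the opposite strand and ADCK2 on the same strand. Whether counting used strand is not given in the sources used here, so these 3 values are uncertain. NDUFB1, NDUFB10 and NDUFA8 overlap no other protein-coding gene.

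NDUFA10 stood lowest among complex I members, at 7.39 FPKM in A375 and 5.84 in A375-VR, a fold of 0.790 (0.725–0.861). NDUFV1, which carries the FMN and takes the electrons from NADH, had 32.4 and 27.5 FPKM, a fold of 0.849 (0.803–0.897). NDUFA5 had 8.94 and 7.50 FPKM, a fold of 0.838 (0.777–0.904). These 3 had counting intervals below 1, as did NDUFS4 at a fold of 0.908.

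The core subunits of the matrix arm, which carry the FMN and the iron-sulfur clusters, were closer to each other than the accessory subunits were. Among them, folds were 1.01 for NDUFS1, 1.04 for NDUFS3, 0.994 for NDUFS7 and 1.16 for NDUFS8, beside 0.849 for NDUFV1. Their median difference was 0.04 over the 6 past the filter, and 1 of the 6 was above the median of all genes. NDUFV2, the remaining core subunit, had only 9 reads in each library and was not past the filter. The 28 accessory subunits past the filter had a median difference of 0.16, with 17 above the median of all genes.

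Complex II, succinate dehydrogenase, is also an enzyme of the citric acid cycle and is wholly nuclear-encoded. SDHD, a membrane anchor subunit, had 42.4 FPKM in A375 and 33.0 in A375-VR, a fold of 0.779 (0.729–0.832), and was past the small limit. SDHA, the flavoprotein, had 17.8 and 14.8 FPKM, a fold of 0.831 (0.784–0.881). SDHB, the iron-sulfur subunit, had 89.6 and 76.3 FPKM, a fold of 0.851 (0.812–0.893). These 3 were lower in A375-VR beyond counting error, as were 26.4% of all genes past the filter. The exons of SDHA and SDHD overlap those of other protein-coding genes on the same strand. SDHC, the other membrane anchor, went the other way, at 13.2 and 15.3 FPKM and a fold of 1.16 (1.11–1.22). Its recovered length of 14160 bases was the longest of all nuclear members. All its GENCODE exons together have 1902 bases and its canonical transcript 1308, so the value of SDHC is uncertain.

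Complex III, ubiquinol-cytochrome c reductase, passes electrons from ubiquinol to cytochrome c, and its members went both ways. UQCRC2, a core subunit, had 33.8 FPKM in A375 and 24.6 in A375-VR, a fold of 0.728 (0.688–0.769), and was its only member past the small limit. UQCRFS1, the Rieske iron-sulfur protein, had 53.3 and 47.2 FPKM, a fold of 0.886 (0.842–0.933), and MT-CYB, the cytochrome b, had 1198 and 1111 FPKM, a fold of 0.928 (0.911–0.945). The second core subunit, UQCRC1, was higher, at 83.7 and 91.4 FPKM and a fold of 1.09 (1.01–1.18). Of the 6 small subunit genes, counted with the UQCRH copy UQCRHL, 5 had differences above 0, against 60.3% of all genes past the filter. Among the 6, 3 were above the median of all genes, UQCRHL included, and 1 had a counting interval above 1, against 43.6%.

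UQCRQ, which binds near ubiquinone, was the highest of the small subunits relative to A375, at 139 and 169 FPKM and a fold of 1.22 (1.16–1.27), but its exons overlap those of GDF9 on the opposite strand. UQCRH had a fold of 1.03 and UQCR10 of 0.973. UQCRHL, an intron-poor copy of UQCRH whose reads may be shared with it, had 6.88 and 7.81 FPKM, or 2.02% and 2.23% of the sum of both genes.

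Complex IV, cytochrome c oxidase, reduces oxygen. Its 10 common nuclear subunits, those used in most tissues, were all higher in A375-VR on the deposited scale. Of the 10, 7 were above the median of all genes and 6 had counting intervals above 1. Among all genes past the filter, 60.3% were above 0 and 43.6% had counting intervals above 1. Together the 10 subunits summed to 1037 FPKM in A375 and 1174 in A375-VR, a fold of 1.13. COX7A2 had 58.5 and 79.8 FPKM, a fold of 1.36 (1.28–1.45), and COX5B had 74.1 and 100.3 FPKM, a fold of 1.35 (1.27–1.44). These 2 of the 10 were higher past the small limit, as were 26.8% of all genes past the filter. COX6B1, which faces cytochrome c, had 159 and 191 FPKM and a fold of 1.20. COX4I1, the subunit through which ATP and ADP act on the complex, had 79.8 and 82.4 FPKM and a fold of 1.03; COX6C (44.7 and 45.5 FPKM) and COX8A had folds of 1.02 and 1.06. The counting intervals of these 3 included 1.

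Several complex IV subunits have a second isoform used in lung, heart and skeletal muscle or testis, and most of these were at or near 0. COX4I2, COX6A2 and COX8C were listed at 0 in both libraries. COX6B2 had 1 read in A375 and 0 in A375-VR. COX7A1, the muscle isoform, had 0.949 FPKM from 17 reads in A375 and 0 reads in A375-VR, with a counting interval of the fold that reached up to 0.263, and was below the expression filter in both. COX7B2 had 3.34 FPKM from 16 reads and 1.81 FPKM from 8 reads, a fold of 0.542 (0.201–1.34), and was past the small limit. Its interval includes 1 but may be too wide, because the recovered reads are lower limits. The recovered length of COX7B2 was 269 bases, against 556 for its canonical transcript. COX7B2 made up 6.80% and 3.45% of the sum of COX7B and COX7B2. NDUFA4, named for complex I and now assigned to complex IV, had 55.3 and 62.5 FPKM, a fold of 1.13, and its paralog NDUFA4L2, known as a hypoxia-induced gene, had 0.860 and 0.867 FPKM.

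Complex V, ATP synthase, consists of the F1 head that makes ATP, the membrane part with its turning ring of c subunits, and a peripheral stalk that holds the head still. Its parts differed in direction on the deposited scale. Relative to the median of all genes, the median differences of all its nuclear parts were below 0. They were -0.26 for the F1 head, -0.25 for the c ring, -0.24 for the peripheral stalk and -0.03 for the membrane subunits. In the F1 head 4 of 5 genes were lower in A375-VR, where 39.7% of all genes past the filter were. ATP5F1B had 670 and 571 FPKM, a fold of 0.853 (0.832–0.875). ATP5F1A, the alpha subunit, had 51.1 and 46.0 FPKM, a fold of 0.901 (0.875–0.927). ATP5F1C and ATP5F1D, the gamma and delta subunits, had folds of 0.893 and 0.874, at 91.0 and 81.3 FPKM for the former and 48.5 and 42.4 for the latter. ATP5F1E, the epsilon subunit, was the exception, at 63.4 and 90.5 FPKM and a fold of 1.43 (1.36–1.50), but its exons overlap those of TUBB1 on the opposite strand. The F1 genes together summed to 924 and 832 FPKM, a fold of 0.900.

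Subunit c is encoded by 3 genes whose mature proteins are the same. All 3 had differences below 0: ATP5MC1 had 40.7 and 38.8 FPKM, ATP5MC2 73.1 and 65.4, and ATP5MC3 46.1 and 41.4, with folds of 0.953 (0.892–1.02), 0.895 and 0.899, the first not beyond counting error. Their shares of the summed c genes were nearly the same in the 2 libraries, at 25.5% and 26.6% for ATP5MC1, 45.7% and 44.9% for ATP5MC2 and 28.8% and 28.4% for ATP5MC3. In the peripheral stalk, ATP5PB had 107 and 89.3 FPKM, a fold of 0.834 (0.803–0.865), and ATP5PO had 10.9 and 9.35 FPKM, a fold of 0.856. ATP5PF had a fold of 0.948 and ATP5PD, at 16.9 and 20.8 FPKM, a fold of 1.23 (1.13–1.34), so that 3 of 4 stalk genes were lower. The exons of all 4 overlap those of another protein-coding gene.

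The 5 small membrane subunits of complex V all had differences above 0 on the deposited scale, with 2 of 5 above the median of all genes. Only 1 of the 5 was beyond counting error. Among all genes past the filter, 60.3% were above 0 and 43.6% had counting intervals above 1. ATP5MD, which helps hold the enzyme dimers together, had 161 and 192 FPKM, a fold of 1.19, while ATP5MF, ATP5ME, ATP5MPL and ATP5MG had folds from 1.00 to 1.09 with counting intervals that included 1. ATP5IF1, the inhibitor protein that stops ATP synthase from running backwards, is no subunit but carries the ATP5 symbol. It had 46.7 FPKM in A375 and 60.1 in A375-VR, a fold of 1.29 (1.21–1.37). Among the other rows that are not subunit genes, ATP5S had a fold of 0.898 and COX7A2L, a factor of respiratory supercomplex assembly, had 15.9 and 17.5 FPKM and a fold of 1.10. ATP5MGL had 0 and 7 reads, below the filter, and the readthrough rows NDUFC2-KCTD14 and ATP5MF-PTCD1 were listed at 0 in both.

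**Figure D3:**
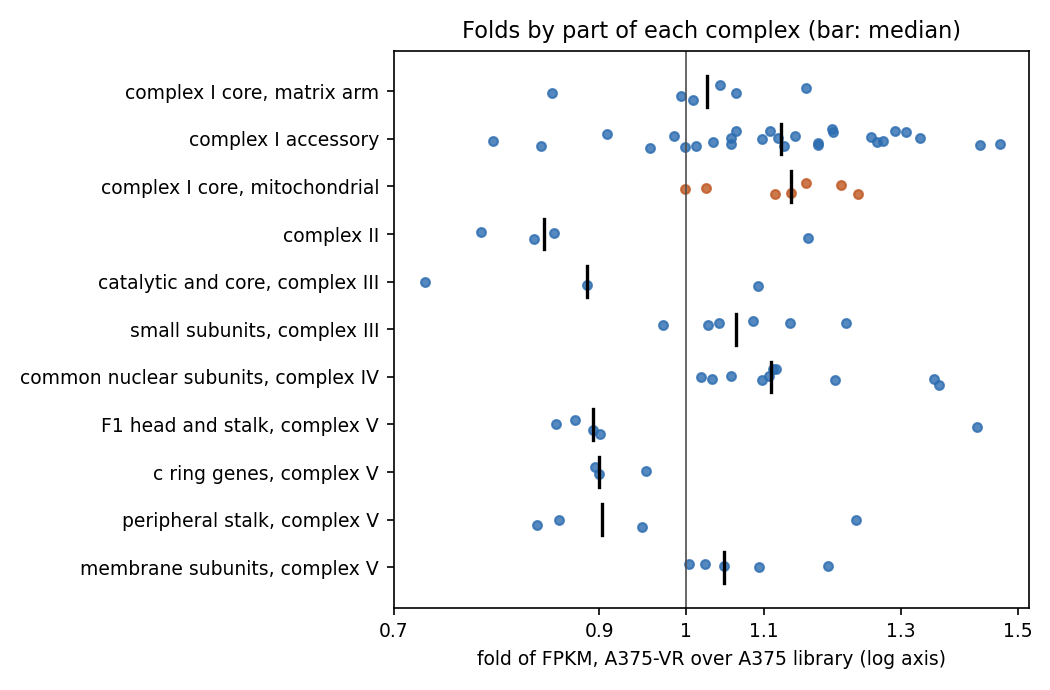
Fold of FPKM, A375-VR over A375 (horizontal, log axis), for the genes past the filter in each structural part of the complexes, 1 point per gene, with bars at the medians. The common nuclear subunits of complex IV all lie above 1, the 3 genes of subunit c lie below 1, and the F1 head lies below 1 except for ATP5F1E.

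The nuclear and the mitochondrially encoded members had near sums in the 2 libraries. Nuclear members summed to 5262 FPKM in A375 and 5487 in A375-VR, a fold of 1.04, and mitochondrially encoded members to 20856 and 21165 FPKM, a fold of 1.01. The median difference was 0.08 over the 79 nuclear members and 0.16 over the 13 mitochondrially encoded ones, of which 37 and 7 were above the median of all genes. Differences ran from -0.49 to 0.92 among the mitochondrially encoded genes and from -0.63 to 0.51 among the nuclear ones. Of the 13 mitochondrially encoded genes 4 were past the small limit, 2 higher and 2 lower (15.4% each). Of the 79 nuclear members 13 were, 10 higher (12.7%) and 3 lower (3.80%). Of all genes past the filter, 26.8% were higher and 13.8% lower.

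Along the heavy-strand transcript the mitochondrially encoded genes went both ways. MT-CO1, the catalytic subunit of complex IV (chrM 5904 to 7445), had 1627 FPKM in A375 and 3077 in A375-VR, a fold of 1.89 (1.87–1.91), the largest of any member past the filter. MT-CO3 (chrM 9207 to 9990) had 3810 and 2709 FPKM, a fold of 0.711 (0.702–0.721). MT-CO2 (chrM 7586 to 8269), which takes the electrons from cytochrome c, had 3148 and 3135 FPKM, a fold of 0.996 (0.981–1.01). The 3 mitochondrial subunits of 1 complex were thus higher, lower and level, and the ratio of MT-CO3 to MT-CO1 was 2.34 in A375 and 0.880 in A375-VR.

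MT-ATP8 and MT-ATP6, read from 1 RNA and overlapping in the 46 bases printed above, also went opposite ways. MT-ATP8 (chrM 8366 to 8572) had 109 and 162 FPKM from 403 and 551 reads, a fold of 1.48 (1.30–1.69). MT-ATP6 (chrM 8527 to 9207), which forms the proton channel beside the c ring, had 3310 and 2646 FPKM, a fold of 0.799 (0.787–0.811). The ratio of MT-ATP6 to MT-ATP8 was 30.3 in A375 and 16.3 in A375-VR, although the 2 genes share a transcript. MT-ATP8 is 207 bases long, short beside paired reads of 150 bases, and overlaps MT-ATP6, so its reads depend on how overlapping genes were counted (not given in the sources used here), and its values are uncertain.

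The complex I genes of mitochondrial DNA were closer together. MT-ND5 (chrM 12337 to 14148) had 348 and 430 FPKM, a fold of 1.23 (1.20–1.27), and MT-ND1 (chrM 3307 to 4262) 793 and 959 FPKM, a fold of 1.21 (1.18–1.24). MT-ND2 (chrM 4470 to 5511) had 2208 and 2462 FPKM, a fold of 1.11 (1.10–1.13). MT-ND4L (chrM 10470 to 10766) had 667 and 772 FPKM, a fold of 1.16 (1.11–1.21). These 4 were higher in A375-VR.

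MT-ND4 (chrM 10760 to 12137) had 2231 and 2230 FPKM, a fold of 0.999 (0.987–1.01), and MT-ND3 (chrM 10059 to 10404) had 1134 and 1163 FPKM, a fold of 1.03 (0.991–1.06). The ratio of MT-ND4 to MT-ND4L, which share 7 bases and a transcript, was 3.35 and 2.89. MT-ND6 (chrM 14149 to 14673), the only member on the light strand, had 272 and 309 FPKM, a fold of 1.14 (1.08–1.20). MT-CYB (chrM 14747 to 15887) is given above. All 7 complex I genes together summed to 7653 and 8324 FPKM, a fold of 1.09. These 7 genes gave most of the complex I sum, so the fold of the whole complex follows theirs. The nuclear members of complex I summed to 1665.2 FPKM in A375 and 1823.5 in A375-VR, a fold of 1.10.

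The genes with the widest differences lie under the chromosome 1 copy. That copy spans chr1:564461-570304, is between 97.6% and 99.1% identical to mitochondrial DNA, and covers MT-ND2, MT-CO1, MT-CO2, MT-ATP8 and MT-ATP6 in full, 36.8% of MT-ND1 and 70.0% of MT-CO3. Folds of these 7 genes ran from 0.711 to 1.89, while the 6 genes outside the copy, whose best nuclear matches are between 86.0% and 95.8% identical, had folds from 0.928 to 1.23. As sums, however, the 7 genes had 15006 and 15150 FPKM, a fold of 1.01, and the 6 genes 5850 and 6015 FPKM, a fold of 1.03. The tables hold 0 rows for mitochondrial pseudogenes, and the part of the copy in these differences was not tested.

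**Figure D4:**
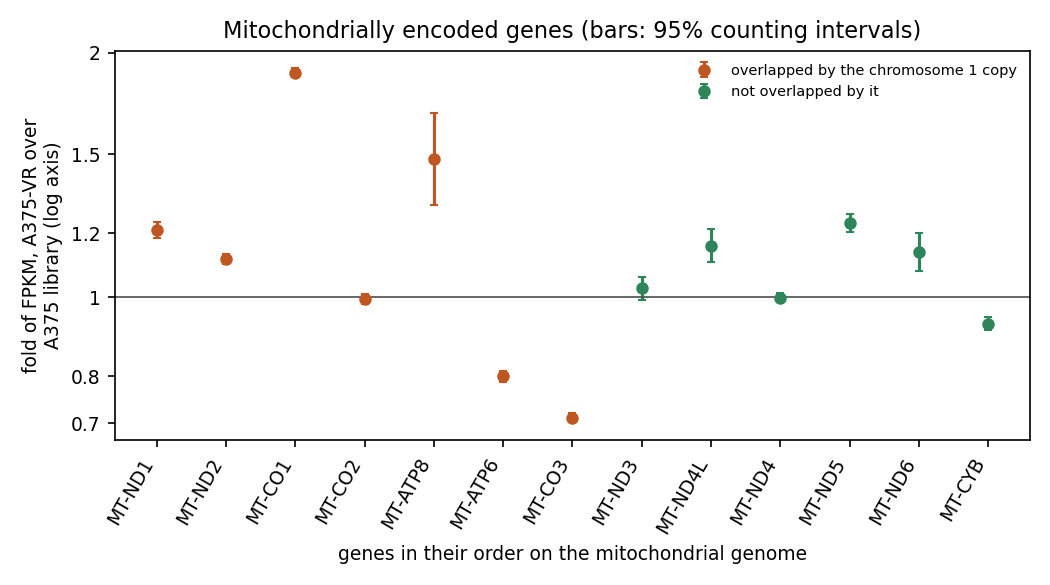
Fold of FPKM, A375-VR over A375 (vertical, log axis), with its 95% counting interval for the 13 mitochondrially encoded genes in their order along mitochondrial DNA, coloured by overlap with the chromosome 1 copy. MT-CO1 (1.89) and MT-ATP8 (1.48) lie highest and MT-CO3 (0.711) and MT-ATP6 (0.799) lowest, all overlapped by the copy.

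Among the nuclear members the promoters were read for motifs of factors known to act at these genes: NRF-1, ETS-family factors such as GABP, and YY1. Promoter sequences, 250 bases before to 50 after the start, were those of RefSeq (GRCh38.p14) and were found for 72 of the 90 nuclear members. Both strands were searched. The NRF-1 motif, a run of 10 bases with 1 free position, was in 17 of the 72, or 23.6%, where 6.98% of all 27305 genes with a promoter entry and 14.3% of the 8919 past the filter hold it. The ETS motif CCGGAAG was in 21, or 29.2%, against 12.2% and 24.0%. The YY1 motif AAGATGGC was in 12, or 16.7%, against 3.52% and 6.91%. A match is a run of letters and not a measured site.

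4 members hold its palindromic form, in capitals below, or 5.56% of the 72, against 1.52% of all genes with an entry and 2.88% of those past the filter. They are shown because the same letters stand in promoters of genes that differ in direction here. Each line reads 5′ to 3′ on the strand of the gene, in GRCh38.p14 coordinates.
NDUFA8, chr9:122159774-122159808, minus strand: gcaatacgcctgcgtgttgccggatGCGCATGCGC
NDUFB4, chr3:120596152-120596211, plus strand: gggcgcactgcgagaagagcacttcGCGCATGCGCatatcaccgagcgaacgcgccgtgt
SDHD, chr11:112086738-112086797, plus strand: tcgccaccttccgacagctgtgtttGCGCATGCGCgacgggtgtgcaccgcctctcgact
ATP5F1C, chr10:7788130-7788176, plus strand: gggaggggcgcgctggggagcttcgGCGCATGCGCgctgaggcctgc

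The motif begins 4 bases before the start in NDUFA8, 159 in NDUFB4, 110 in SDHD and 22 in ATP5F1C. The folds of these genes were 1.26, 1.20, 0.779 and 0.893 in the same order, so 2 were higher and 2 lower in A375-VR. Of the 16 members past the filter with the broader NRF-1 motif, 10 had differences above 0 and 6 below, with a median of 0.05, and the 49 without it had a median of 0.13. With the ETS motif 17 were above 0 and 4 below (median 0.08), and with the YY1 motif 5 were above and 6 below (median -0.01). Members with and without a motif overlapped widely.

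The genes that build and supply the complexes were read from 10 lists. In each list, members below 0 are set against 39.7% of all genes past the filter, and members above 0 against 60.3%. Carriers and subunits outside the symbol rule were mostly lower in A375-VR, 5 of 6, with a median of -0.24 against 0.10 over all genes. CYCS, the cytochrome c that carries electrons from complex III to complex IV, had 82.5 FPKM in A375 and 58.9 in A375-VR, a fold of 0.714. NDUFAB1, the acyl carrier protein of complex I, had 134 and 110 FPKM, a fold of 0.825, and HIGD1A, which binds complex IV, a fold of 0.796. CYC1, the cytochrome c1 of complex III, had a fold of 0.926.

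Assembly factors of complex I did not go the way of its subunits: 12 of 15 were lower, against 39.7% of all genes, with a median of -0.16. Past the small limit 4 of the 15 were lower and 1 higher, where 13.8% and 26.8% of all genes past the filter were. NDUFAF4 had 23.4 and 15.3 FPKM, a fold of 0.651, and NDUFAF6 and NDUFAF2 had folds of 0.668 and 0.785. For complexes II and III, 6 of 10 assembly factors were lower (median -0.04), with SDHAF3 at 0.574 and BCS1L at 0.781 against SDHAF1 at 1.52. For complex IV, 12 of 21 were above 0 (median 0.01) and fewer above the median of all genes (8), led by COX14 at 26.1 and 39.3 FPKM, SURF1 at 17.7 and 26.6 FPKM and then COA5 at a fold of 1.43. For complex V, 3 of 4 were lower (median -0.18), with ATPAF1 at 0.846 and FMC1 at 0.808 against ATPAF2 at 1.37.

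Genes that keep and read mitochondrial DNA were lower in 7 of 10 cases, against 39.7% of all genes past the filter, with a median of -0.11. TFAM, the protein that packs mitochondrial DNA and starts its transcription, had 26.4 and 16.5 FPKM, a fold of 0.626 (0.587–0.667), while the summed mitochondrial genes had a fold of 1.01. SSBP1, the single-strand binding protein, had a fold of 0.760, and TFB1M, a ribosomal RNA methylase, 1.32. Of 14 genes of mitochondrial RNA processing and stability 9 were lower (median -0.13), among them FASTKD2 at 0.692, PNPT1 at 0.703 and ELAC2, which cuts out mitochondrial tRNAs, at 0.744. Of 7 regulators of biogenesis past the filter 4 were lower (median -0.10), with NRF1 at 0.765, PPRC1 at 0.767 and ESRRA at 27.6 and 34.4 FPKM.

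The enzymes of pyruvate dehydrogenase and the citric acid cycle, which feed the chain with electrons, were listed together with PC, pyruvate carboxylase. The list went both ways, with 12 of 19 genes lower, against 39.7% of all genes past the filter, and a median of -0.06. FH, fumarate hydratase, had 124 and 80.2 FPKM, a fold of 0.649. PC, which belongs to neither group, had 3.57 and 7.19 FPKM, a fold of 2.01. OGDH, of the oxoglutarate dehydrogenase complex, had a fold of 1.44 and CS, citrate synthase, of 0.785. All 6 kinases and phosphatases of pyruvate dehydrogenase had differences above 0, against 60.3% of all genes past the filter. Their median was 0.36, and 5 of the 6 were above the median of all genes. PDK4, a kinase that turns pyruvate dehydrogenase off, had 1.64 and 13.3 FPKM, a fold of 8.10 (6.75–9.79), and PDP2, a phosphatase that turns it on, had 3.26 and 8.49 FPKM, a fold of 2.60. PDK2 had a fold of 1.71. The other 3, PDK3 at a fold of 1.20 (0.974–1.47), PDK1 at 1.17 (0.993–1.39) and the phosphatase PDP1 at 1.03 (0.979–1.09), had counting intervals that included 1.

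**Figure D5:**
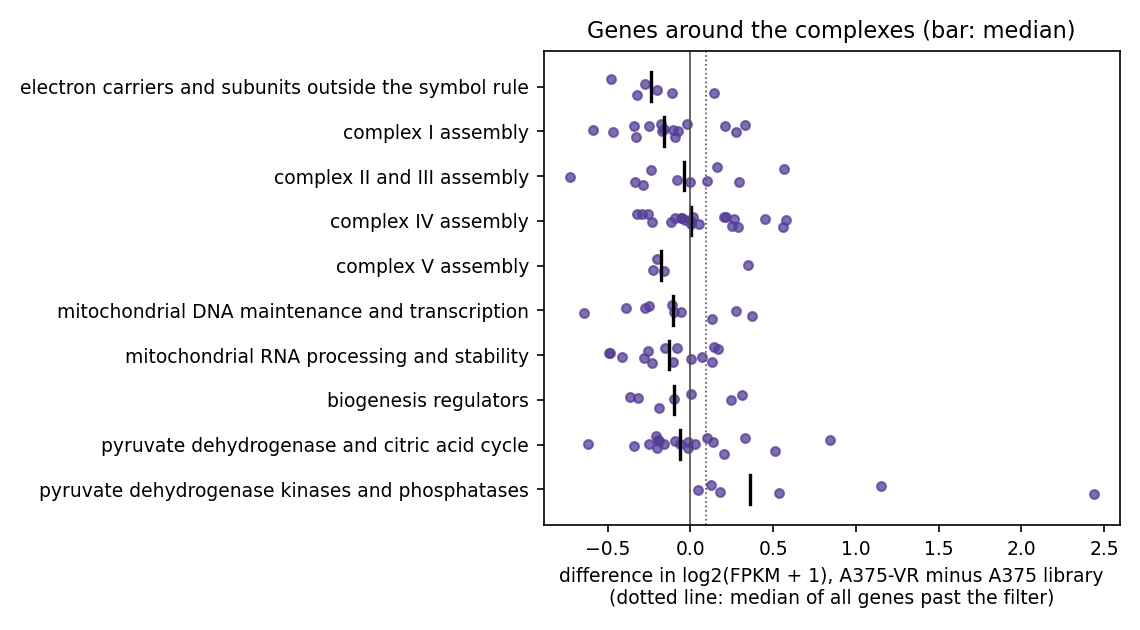
Difference in log2(FPKM + 1), A375-VR minus A375 (horizontal), for genes past the filter in each related list, 1 point per gene, with bars at the medians and a dotted line at the median of all genes (0.10). Assembly factors of complex I (median -0.16) and carriers (median -0.24) lie mostly below 0, and pyruvate dehydrogenase kinases and phosphatases (median 0.36) all lie above it.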

How the data were processed

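RNA-seq values of 2 libraries, 1 per group, were used. Per the series' design text, stranded mRNA libraries were sequenced on a HiSeq 2000 as 150-base pairs and aligned to GRCh37 (hg19) with TopHat 1.3.3 (counting tool, annotation, filters and use of strand: not given in the sources used here). FPKM values were deposited by the authors and their scale was kept. Genes reaching an FPKM of 1 in either library were compared as log2(FPKM + 1), with limits at differences of 0.3219 (the small limit) and 1 (2-fold). With 1 library per group no test was possible.

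Reads were recovered from the FPKM steps: 274 genes with equal reads gave the ratio of totals, and of 12 multiples tried the smallest that gave whole reads for the 13 mitochondrial genes was taken, so reads are lower limits. Fold intervals are exact binomial (Clopper-Pearson, 95%), cover counting error only, and may be too wide. Lengths of nuclear genes follow from reads and FPKM and may be too short, and those of mitochondrial genes are the annotated ones. Exon overlaps and canonical transcripts were taken from GENCODE 44 on GRCh37, and mitochondrial copies were found with blastn 2.17.0. Exons of 31 nuclear members past the filter overlap another protein-coding gene, which makes their values uncertain. Sequences came from the GRCh37 genome and RefSeq promoters. Python 3.11.15, pandas 2.3.3 and scipy 1.17.1 were used, and the code was checked on simulated data.

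The members, lists and markers were chosen with earlier results of these data known, and the grouping by structural part was made after the values were seen. Genes were named by rule: all mitochondrially encoded members, SDHA to SDHD, the 3 highest and 3 lowest differences and the 2 most abundant nuclear members per complex, isoform pairs, subunit c genes, rows that are not subunits, and up to 3 genes per related list. The other genes named (core and stalk subunits, NDUFS4, the complete F1 and membrane groups of complex V, NDUFB4, CYC1, CS and PPARGC1A) were added after their values were seen. Some single values are not reported here.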

Additional observations from a re-analysis of the deposited data

How the results depend on the processing

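No paired analysis was possible because each group has 1 library, and for the same reason no replicate could be left out. A pseudocount of 0.1, a filter at FPKM 5 or none, rescaling to a common sum over all genes or to the sum of nuclear genes, centring on the median of all genes and a trimmed mean of log ratios were tried. In all of them the median differences of complexes I (0.04 to 0.18) and IV (0.02 to 0.16) and of the mitochondrially encoded members stayed above 0, and those of complexes II and V below 0; 64 of 89 values moved by less than the error set for them. Centring gave medians of -0.012 for all members, -0.016 for nuclear members, 0.061 for mitochondrially encoded members, -0.34 for complex II and -0.17 for complex V. The trimmed mean gave -0.027 for all members, -0.027 for nuclear members, 0.040 for mitochondrially encoded members, 0.043 for complex I, -0.35 for complex II, 0.021 for complex IV and -0.18 for complex V. The medians of all, nuclear and complex III members therefore turn below 0 under both. By construction centring shifts every difference alike. The trimmed mean divides every FPKM of A375-VR by the same factor, which moves the differences of genes at low FPKM less. The median of mitochondrially encoded members was 0.18 with either rescaling. The count of members higher past the small limit, 12 on the deposited scale, was 6 after centring and 5 after the trimmed mean, and the count lower, 5, was 12 in each. The mitochondrial share of the members' FPKM sum (79.9% and 79.4%) became 80.0% and 79.6% without rows that are not subunits, and 79.2% and 78.7% without MT-ATP8 and MT-ND4L. 2 alternatives were chosen after seeing the data. With reads per kilobase of the canonical transcript that share was 68.1% (A375) and 67.3% (A375-VR), and without the 7 genes under the chromosome 1 copy the median of mitochondrially encoded members was 0.11. Depth limits genes such as COX7B2, COX7A1 and NDUFV2, with 17 recovered reads or fewer in each library, although recovered reads are lower limits.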

Other observations

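PPARGC1A, the coactivator PGC-1alpha that drives mitochondrial biogenesis, was below the expression filter in both libraries and so entered no count. It had 0.0775 FPKM from 15 reads in A375 and 0.862 FPKM from 154 reads in A375-VR, a fold of 11.1 (6.54–20.4), and was looked at after its values were seen.

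The differences of nuclear members moved with the recovered gene length, which may be too short. For COX7B it was 168 bases and for NDUFC2 442, against canonical transcripts of 2444 and 2168 bases. The classes of short recovered length may therefore hold longer genes. In members up to 1000 bases the median difference was 0.13 (16 genes) and from 1000 to 2000 bases 0.14 (23 genes), whereas it was 0.00 from 2000 to 4000 bases (22 genes) and above 4000 bases (18 genes). Over all genes past the filter the medians in the same length classes were 0.08, 0.04, 0.05 and 0.12, so the class of longest recovered length stood highest there. The part of length in the differences between complexes was not tested.

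Around the small limit of 0.3219 the members lay close together: NDUFB2 and NDUFA8 were just inside, each with a difference of 0.33, and NDUFC1 at 0.32, NDUFA13 at 0.31 and NDUFA10 at -0.29 were just outside. The exons of NDUFC1 overlap those of NAA15 on the opposite strand and of MGARP on the same strand. Those of NDUFA13 overlap YJEFN3 on the same strand, and NDUFA13 rests on 59 and 78 reads.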
